A study of Mus musculus with 40 samples.

Results

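Expression of 10 genes of the ATF4 response and of serine, glycine, asparagine and proline synthesis was followed in mouse cardiac fibroblasts. The genes were *Atf4*, *Ddit3*, *Asns*, *Phgdh*, *Psat1*, *Psph*, *Shmt2*, *Mthfd2*, *Aldh18a1* and *Pycr1*, a list set by name and not by a measured value. They are 10 of 55414 genes in the deposited count table and 10 of the 25210 genes that had at least 10 counts in total and were tested, and all 10 passed this filter.

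All cells came from hearts of adult male C57BL/6J TAK1fl/fl mice, in which loxP sites flank an exon of *Map3k7*, the gene for the kinase TAK1. The fibroblasts were grown with bFGF, used at passage 1, and given an adenovirus with a CMV promoter that drove either LacZ, the control, or iCre, a Cre recombinase, and neither was restricted to a cell type. After serum starvation they received no ligand (Con), bFGF at 20 ng/ml, TGFβ at 10 ng/ml, IL-1β at 15 ng/ml or TNFα at 10 ng/ml for 24 h. The 10 groups of virus and ligand had 4 replicates each, which made 40 RNA-seq libraries. The comparisons ask which ligands change these genes, and whether the change depends on TAK1.

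ATF4 is a transcription factor whose mRNA is translated more efficiently when the initiation factor eIF2α is phosphorylated, as happens when amino acids run short or misfolded proteins accumulate. It activates genes for amino acid synthesis, transport and tRNA charging. Serine is made from a glycolytic intermediate by PHGDH, PSAT1 and PSPH, and is then split in mitochondria into glycine and a one-carbon unit by SHMT2. MTHFD2 acts on that one-carbon unit afterwards. Proline is made from glutamate by the synthase encoded by *Aldh18a1* and by reductases such as PYCR1, and glycine and proline are the most frequent residues of collagen, the main product of activated fibroblasts.

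Library totals lay between 25360947 and 66160732 counts, and the 10 genes had between 144 and 27291 counts in any library, so that counting error was small beside the spread between replicates. *Map3k7* was lower in iCre than in LacZ fibroblasts in the mean of every treatment, at 127.5 ± 4.27 CPM (SD, n = 4) against 153 ± 6.51 CPM in Con and at 126 ± 4.07 against 220.0 ± 17.9 CPM with IL-1β, where CPM are counts scaled to the size of the library. Reads over all its exons were counted, those of recombined transcripts included. Summed markers of fibroblasts were between 15350 and 69710 CPM in any library, against 1.24 to 13.8 CPM for endothelial markers and 0.0952 to 2.08 CPM for the leukocyte marker *Ptprc*. Macrophage markers, mainly *Lyz2*, summed to 12.7 to 148 CPM, with 45.4 to 137 CPM in LacZ Con and 20.5 to 83.0 CPM in LacZ with TGFβ. The cardiomyocyte gene *Tnnt2* was at 0.271 to 110.3 CPM, with 14.6 to 110.3 CPM in LacZ Con and 2.80 to 14.3 CPM in LacZ with TGFβ, while *Myh6* had 3 counts in total. Pericyte and smooth muscle markers summed to between 61.3 and 1368 CPM, most of it *Rgs5*. Their range was 87.8 to 538.5 CPM in LacZ Con and 404 to 937.5 CPM in LacZ with TGFβ, and 255 to 861 CPM in iCre Con, and the part of these other cell types in the results was not tested. In bulk RNA, fewer cells of a type and less RNA per cell cannot be told apart. The replicates are described as biological replicates, and whether the cells of a replicate number came from the same animal in all groups is not given in the sources used here. Libraries of the same replicate number deviated together across groups, and a fit with this number as a block was therefore run as well.

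Reads of *Ddit3*, *Psph* and *Shmt2* overlap genes on the opposite strand, among them *Mars* at *Ddit3*, *Cct6a* at *Psph* and *Ndufa4l2* at *Shmt2*. The strand setting of the counting is not given in the sources used here, so that values of these 3 genes may hold reads of their neighbours.

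RefSeq promoters (GRCm38.p6, from 250 bases before to 50 bases after the transcription start) were found for all 10 genes. The letters TGATGNAA, a core that ATF4 and CEBP proteins are known to bind, were searched on both strands. They were present in 2 of the 10 genes, *Asns* and *Pycr1*, and in 3.97% of the 32851 promoters in the table. Both windows are shown 5′ to 3′ on the strand of the gene with the matching letters in capitals, since these are the 2 that hold the motif.
Asns, chr6:7693160-7693459, minus strand: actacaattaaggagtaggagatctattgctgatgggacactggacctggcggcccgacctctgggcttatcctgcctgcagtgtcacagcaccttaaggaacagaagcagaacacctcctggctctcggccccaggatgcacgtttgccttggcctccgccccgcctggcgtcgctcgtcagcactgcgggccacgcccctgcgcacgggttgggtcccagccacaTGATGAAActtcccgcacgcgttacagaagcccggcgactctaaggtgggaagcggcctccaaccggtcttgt
Pycr1, chr11:120643699-120643998, minus strand: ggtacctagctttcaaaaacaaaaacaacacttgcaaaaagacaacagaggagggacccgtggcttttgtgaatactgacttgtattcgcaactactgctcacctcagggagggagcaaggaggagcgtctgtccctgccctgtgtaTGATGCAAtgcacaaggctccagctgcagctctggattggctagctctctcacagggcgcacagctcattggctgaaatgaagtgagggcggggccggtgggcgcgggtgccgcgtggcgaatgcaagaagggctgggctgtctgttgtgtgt
The match started 23 bases before the transcription start of *Asns* and 103 bases before that of *Pycr1*. A match describes the letters only, and its absence from the windows of the other 8 genes says nothing about binding elsewhere.

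TGFβ gave the largest changes. In LacZ fibroblasts 9 of the 10 genes rose and 0 fell at an adjusted p-value of at most 0.05 by edgeR's quasi-likelihood test, while 36.9% of all genes tested were called in this comparison. In iCre fibroblasts 10 of 10 rose, against 37.4% of all genes. The median log2 fold change of the 10 genes was 2.63 in LacZ and 3.11 in iCre, where all genes had medians of −0.17 and −0.11. These counts were 9 and 10 under every alternative tried.

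*Atf4* (ENSMUSG00000042406, chromosome 15 from 80255184 to 80257541 of GRCm38), the transcription factor itself, was at 186, 138, 148 and 159 CPM in the 4 LacZ Con libraries and at 497, 642, 440 and 443 CPM with TGFβ. The iCre libraries had 117, 88.0, 111.5 and 128 CPM in Con and at 607, 688, 621 and 629 CPM with TGFβ. The TGFβ libraries lay above all Con libraries in both viruses. The increase was 3.24-fold in LacZ (log2 change 1.70 ± 0.15 SE, adjusted p = 1.76e-05) and 5.80-fold in iCre (2.53 ± 0.13 SE, adjusted p = 5.96e-07). *Ddit3* (ENSMUSG00000025408, chromosome 10 from 127290774 to 127296288), which encodes the stress factor CHOP, was the exception in LacZ fibroblasts. It was at 50.3, 48.9, 58.9 and 76.1 CPM in Con and at 56.6, 95, 51.3 and 61 CPM with TGFβ, so that the groups overlapped, and the log2 difference was 0.19 (SE 0.21, adjusted p = 0.516). In iCre fibroblasts *Ddit3* went from 41.6, 27.6, 34.8 and 57.1 CPM to 86.2, 94.4, 68.7 and 83.3 CPM, a log2 rise of 1.06 (SE 0.20, adjusted p = 0.00179) without overlap.

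*Asns* (ENSMUSG00000029752, chromosome 6 from 7675169 to 7693254), the gene for asparagine synthetase whose promoter is shown above, was at 41.3, 24.6, 35.6 and 47.1 CPM in LacZ Con and at 395, 387, 327 and 321 CPM with TGFβ. The lowest TGFβ library was several times the highest Con library. The log2 fold change was 3.28 in LacZ (SE 0.20, adjusted p = 2.54e-06) and 3.86 in iCre (SE 0.29, adjusted p = 4.72e-06), where levels went from 22.2, 15.8, 23.2 and 43.7 to 364, 316, 403 and 423 CPM.

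The 3 enzymes of serine synthesis rose together. *Phgdh* (ENSMUSG00000053398, chromosome 3 from 98313170 to 98339990), the first and committed step, went in LacZ fibroblasts from 30.3, 22.1, 23.9 and 27.4 CPM in Con to 164, 190, 135 and 136 CPM with TGFβ. *Psat1* (ENSMUSG00000024640, chromosome 19 from 15904678 to 15947337), the transaminase of the second step, went from 46, 55.3, 54.2 and 53.3 to 191, 370, 196 and 187 CPM. *Psph* (ENSMUSG00000029446, chromosome 5 from 129765558 to 129787449), the phosphatase that releases serine, went from 12.6, 11.5, 12.4 and 13.8 to 110, 88.1, 84.9 and 86 CPM. Con and TGFβ libraries did not overlap for any of the 3 enzymes. Their log2 fold changes were 2.61, 2.19 and 2.89 in LacZ and 3.23, 2.30 and 3.34 in iCre fibroblasts, with adjusted p-values of at most 3.26e-05. In iCre with TGFβ the lowest and highest libraries were 175 and 223 CPM for *Phgdh*, 224 and 332 CPM for *Psat1*, and 71.5 and 119 CPM for *Psph*.

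Both enzymes of mitochondrial one-carbon metabolism rose, and *Mthfd2* had the largest log2 fold change of the 10 genes in either virus. *Mthfd2* (ENSMUSG00000005667, chromosome 6 from 83305691 to 83325908), a folate dehydrogenase and cyclohydrolase, was at 12.7, 10.5, 15.1 and 20.4 CPM in LacZ Con and at 154, 195, 158 and 151 CPM with TGFβ. The increase was 11.4-fold in LacZ (log2 change 3.504 ± 0.21 SE, adjusted p = 1.83e-06) and 19.9-fold in iCre (4.31 ± 0.34 SE, adjusted p = 6.27e-06), where Con libraries were at 9.13, 4.41, 8.35 and 16.8 CPM and TGFβ libraries between 178 and 209 CPM. *Shmt2* (ENSMUSG00000025403, chromosome 10 from 127517123 to 127522444), which turns serine into glycine, went from 32.4, 24, 30 and 37.2 CPM to 275, 307, 235 and 245 CPM in LacZ. Its log2 fold change was 3.12 in LacZ and 3.40 in iCre (adjusted p = 1.08e-06 and 1e-06), again without overlap.

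Both proline genes rose as well. *Aldh18a1* (ENSMUSG00000025007, chromosome 19 from 40550257 to 40588463), whose product starts proline synthesis from glutamate, was at 54, 59.7, 57.7 and 69.1 CPM in LacZ Con and at 327, 521, 322 and 327 CPM with TGFβ. *Pycr1* (chromosome 11 from 120635712 to 120643769), the mitochondrial reductase of the last step, was at 17.8, 21.5, 17.9 and 19.3 CPM in Con and at 109, 138, 103 and 98 CPM with TGFβ. The groups did not overlap for either gene. Log2 fold changes were 2.65 and 2.57 in LacZ and 2.74 and 2.99 in iCre fibroblasts, with adjusted p-values of at most 3.41e-06.

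**Figure D1:**
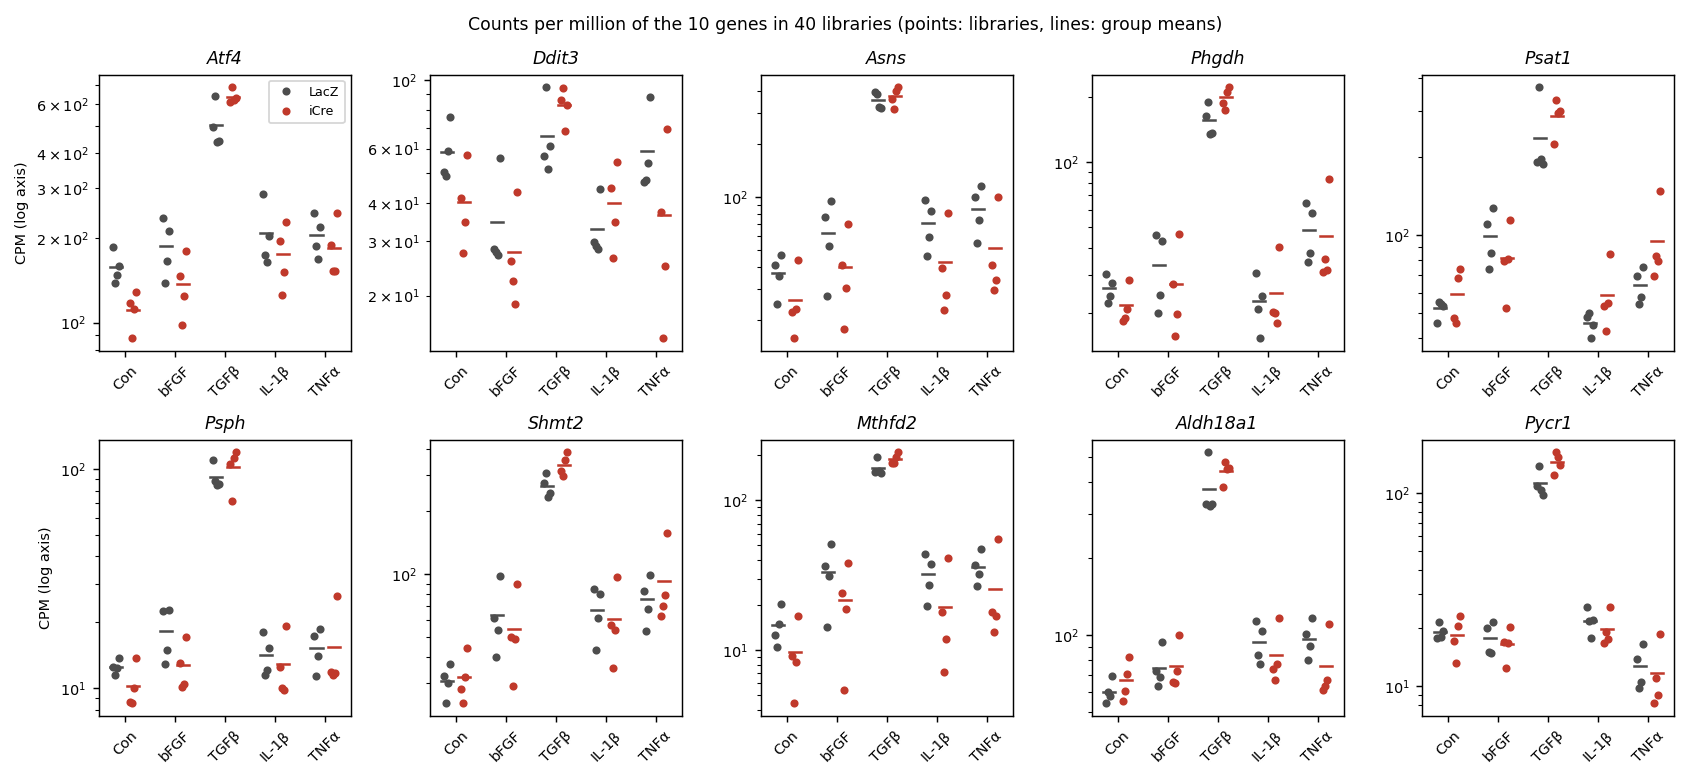
Level of each gene in CPM on a log axis (vertical) in the 5 treatments (horizontal), with 1 point per library, a line at the group mean, LacZ in grey and iCre in red. The TGFβ libraries lie above all others of the same virus for every gene but *Ddit3*, of which 1 iCre library with TNFα (69.4 CPM) also lies above the lowest with TGFβ (68.7 CPM).

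Within LacZ fibroblasts TGFβ gave the highest mean of the 5 treatments for 10 of 10 genes, and did not overlap the next treatment for 9 of them. In iCre fibroblasts these counts were 10 and 10, where the next treatment by mean was Con for *Ddit3*. The shares of all genes with such an order or without overlap were not computed, so these counts only describe the 10 genes. Below TGFβ, neighbouring treatments in the order of means overlapped in 29 of 30 cases in LacZ and in 30 of 30 cases in iCre, the exception being bFGF above Con for *Shmt2*. IL-1β had the lowest mean of *Psat1* in both viruses and of *Phgdh* in LacZ, and TNFα had the lowest mean of *Pycr1* in both viruses. Per kb of exon, the mean level in LacZ Con was 66.9 CPM for *Atf4*, 34.2 CPM for *Ddit3*, 14.8 CPM for *Aldh18a1*, 13.6 CPM for *Asns*, 12.3 CPM for *Psat1*, 10.4 CPM for *Phgdh*, 9.93 CPM for *Shmt2* and 4.86 CPM for *Pycr1*, with *Mthfd2* and *Psph* lower still. With TGFβ, *Asns* at 131 CPM per kb came next after *Atf4* at 214 CPM per kb, and *Ddit3* at 38.5 CPM per kb was below *Mthfd2* at 47.2 CPM per kb.

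In the test without a block, the other 3 ligands moved fewer of the genes. They are compared with the same Con libraries, so their results are not independent of one another. With bFGF, 3 of the 10 genes rose in LacZ fibroblasts (11.6% of all genes were called) and 0 in iCre fibroblasts (2.42% of all genes), where 1 gene had an unadjusted p-value under 0.05 and DESeq2 also called 0. The share of all genes at that unadjusted threshold was not counted. *Psat1* was at 110, 74, 85.4 and 127 CPM in LacZ with bFGF and rose by 0.95 (SE 0.16, adjusted p = 0.00629). *Shmt2* was at 61.9, 40.1, 53.9 and 98.2 CPM, a rise of 1.06 (SE 0.25, adjusted p = 0.0227), and both genes lay above all Con libraries. *Mthfd2* was at 36.7, 14.4, 31.2 and 51.3 CPM, a rise of 1.20 that overlapped Con (SE 0.34, adjusted p = 0.0464), and with the size factors of DESeq2 as scaling in edgeR its call was lost (adjusted p = 0.0518). *Ddit3* was at 28.3, 27.7, 27 and 56 CPM, and the log2 difference was −0.73 (adjusted p = 0.09). With the replicate block, 7 genes rose and 1, *Ddit3*, fell in LacZ (27.3% of all genes), and 5 rose and 1, again *Ddit3*, fell in iCre (16.7% of all genes). In LacZ without a block, 0 genes were called without replicate 3, *Psat1* alone without replicate 1, *Ddit3* alone, as lower, without replicate 4, and 5 genes without replicate 2. The calls among all 25210 genes moved too. In that order they were 222 higher and 110 lower, 754 and 467, 426 and 200, and 2462 and 2133.

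With IL-1β in LacZ fibroblasts, 4 of the 10 genes rose and 1 fell (20.7% of all genes were called). *Shmt2* was at 84.5, 43.4, 61.7 and 80.4 CPM, above all Con libraries (log2 change 1.14, adjusted p = 0.00421), and *Aldh18a1* was at 114, 83.5, 77.1 and 103 CPM, also without overlap (0.66, adjusted p = 0.00708). *Mthfd2* rose by 1.14 (adjusted p = 0.0133) and *Asns* by 0.95 (adjusted p = 0.0239), both with overlapping libraries. *Ddit3* fell to 29.9, 28.9, 28.4 and 44.2 CPM, below all Con libraries (−0.82, adjusted p = 0.0108). *Phgdh* and *Psat1*, the entry to serine synthesis, had log2 fold changes of −0.18 and −0.17 (adjusted p = 0.553 and 0.251). *Atf4* was at 287.5, 174, 164 and 204 CPM, overlapping Con but higher in 4 of 4 pairs of the same number, and was not called without a block (0.41, adjusted p = 0.144) but was with it (0.38, adjusted p = 0.000387). The block thus called 5 genes higher and 1 lower in LacZ (33.5% of all genes). In iCre fibroblasts IL-1β called 1 gene, *Atf4* (16.3% of all genes), at 194, 125, 151 and 228 CPM with a rise of 0.67 (adjusted p = 0.037). The replicate block called 6 of 10 genes higher in iCre (33.8% of all genes), and 4 after correction for GC content (29.9%). In LacZ, *Mthfd2* and *Asns* were not called without replicate 1 or 3, *Asns* not without replicate 4, and *Ddit3* not without replicate 3. The call of *Atf4* in iCre was lost without replicate 1, 3 or 4.

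With TNFα in LacZ fibroblasts, 5 of the 10 genes rose and 1 fell (21.3% of all genes were called). *Shmt2* was at 82.7, 53.2, 68 and 98.7 CPM (log2 change 1.29, adjusted p = 0.0014), *Mthfd2* at 36.8, 26.8, 32.1 and 47.1 CPM (1.29, adjusted p = 0.00308), and *Aldh18a1* at 101, 79.8, 90.5 and 116 CPM (0.69, adjusted p = 0.00326). *Asns* was at 100, 55, 74.2 and 115 CPM (1.21, adjusted p = 0.00759) and *Phgdh* at 64.5, 34.2, 37.9 and 57.8 CPM (0.91, adjusted p = 0.0116). All 5 lay above their Con libraries. *Pycr1* went the other way, to 13.8, 9.79, 10.6 and 16.6 CPM, below all Con libraries (−0.59 ± 0.16 SE, adjusted p = 0.0267). The call of *Pycr1* was lost without replicate 1, 2 or 3, and that of *Phgdh* without replicate 4. In iCre fibroblasts 3 genes rose with TNFα (27% of all genes were called), *Shmt2* by 1.56 (adjusted p = 0.00392), *Phgdh* by 1.10 (adjusted p = 0.0294) and *Atf4* by 0.77 (adjusted p = 0.00884). *Pycr1* changed there by −0.63 on the log2 scale (adjusted p = 0.116, and 0.00861 with the replicate block). *Phgdh* in iCre was not called without replicate 1 or 3, and 6 genes were called without replicate 4, where 2213 of 25210 genes were higher and 1947 lower. With the block 7 genes rose and 1 fell in iCre (36.1% of all genes), and 8 rose and 1 fell in LacZ (35.5%).

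**Figure D2:**
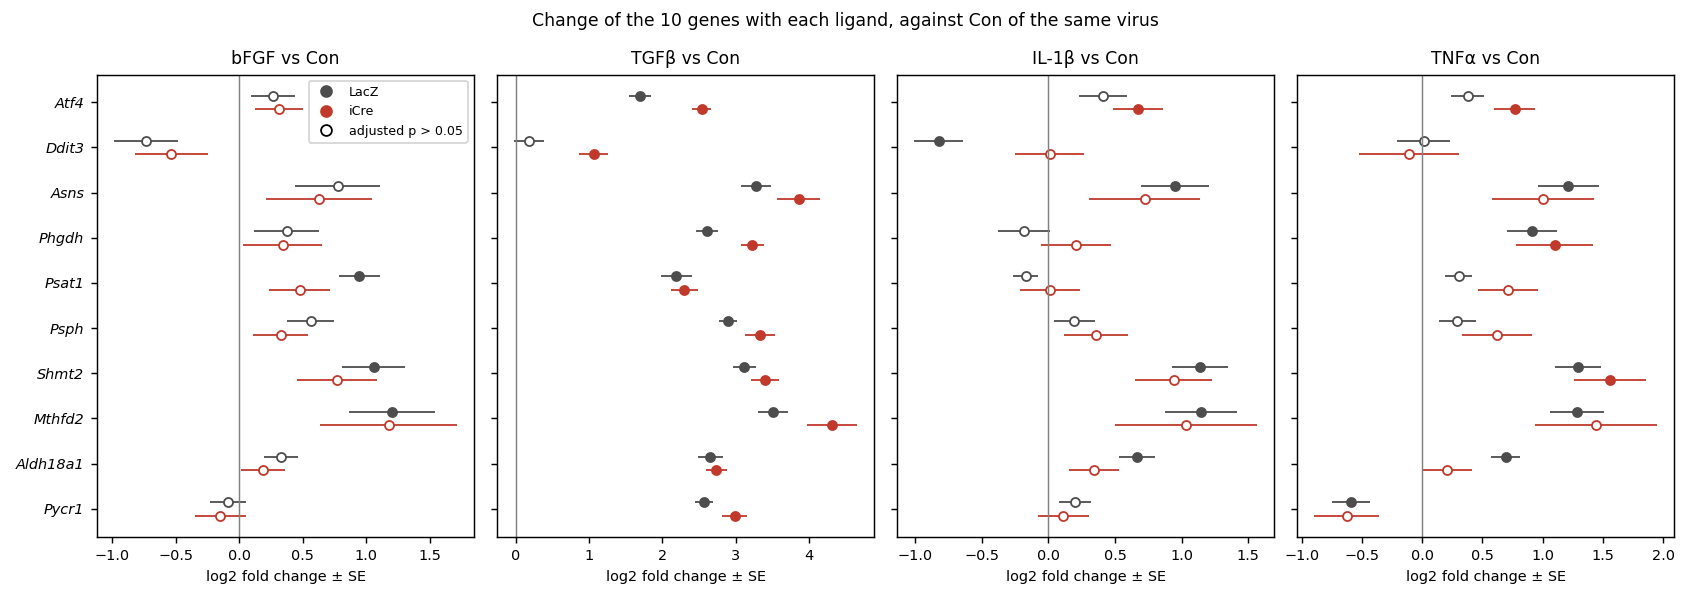
Log2 fold change with its standard error (horizontal, with its own scale in each panel) of each gene for each ligand against Con of the same virus, in LacZ (grey) and iCre (red), with filled points at an adjusted p-value of at most 0.05. TGFβ changes lie between 0.19 and 4.31, and *Ddit3* and *Pycr1* hold the negative calls of the other ligands.

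Between iCre and LacZ fibroblasts, 0 of the 10 genes passed the threshold in any of the 5 treatments by edgeR's quasi-likelihood test without a block. The share of all genes called was 0.0754% in Con and 0% with bFGF. It was 8.37% for TGFβ, 16.1% for IL-1β and 27.3% for TNFα. At an unadjusted p-value under 0.05, 2 of the 10 differed in Con and 1 with bFGF, then 4 under TGFβ, 0 under IL-1β and 1 under TNFα. The shares of all genes under this unadjusted threshold were not counted, so these counts have no share to stand against. DESeq2 called *Atf4* in Con (8.88% of the genes to which it gave an adjusted p-value) and 0 of the 10 elsewhere. *Atf4* in Con was the only gene of the 10 and 5 treatments whose libraries did not overlap, at 138 to 186 CPM in LacZ and 88.0 to 128 CPM in iCre (log2 change −0.52 ± 0.13 SE, adjusted p = 0.143). How many of all genes lacked overlap was not counted, so this 1 case among 10 genes and 5 treatments is a description only.

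The comparison within replicate numbers gave more calls. With the replicate block 5 genes were lower in iCre in Con, namely *Atf4*, *Ddit3*, *Asns*, *Psph* and *Mthfd2*, each in 4 of 4 pairs of the same number. The share of all genes called rose as well, to 14.5% in Con and 13.9% with bFGF. Their log2 fold changes with the block lay between −0.71 for *Mthfd2* (adjusted p = 0.00117) and −0.33 for *Psph* (adjusted p = 0.0404). With bFGF 8 genes were lower, all but *Aldh18a1* and *Pycr1*, with *Mthfd2* at −0.77 (adjusted p = 7.15e-05) and *Asns* at −0.68. *Asns* was thus at 22.2, 15.8, 23.2 and 43.7 CPM in iCre Con, each below the LacZ library of its number.

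With TGFβ the sign was the opposite. The block called 6 genes higher in iCre, *Atf4*, *Ddit3*, *Phgdh*, *Psat1*, *Shmt2* and *Pycr1*, by 0.31 to 0.34 on the log2 scale, of which *Atf4* and *Pycr1* were higher in 4 of 4 pairs. Without replicate 2, in which *Atf4* in LacZ was highest, the test without a block called 7 genes. Of all 25210 genes, 1029 were then higher and 2129 lower in iCre, against 632 and 1479 with all replicates. The libraries also differed in their dependence on the GC content of transcripts. Fitted over 9459 genes, the change of log2 CPM per 10% of GC content ranged from 0.23 to 0.34 in the iCre groups given one of TGFβ, IL-1β and TNFα, and from −0.23 to −0.02 in the other 7 groups. After correction for GC content in the same block, *Ddit3*, the gene with the lowest GC content (45.6%), was the single gene called (0.43, adjusted p = 0.00419). The values of the other 5 were −0.002 for *Shmt2* (57.4% GC), 0.02 for *Phgdh* (57.2%), 0.04 for *Atf4* (55.5%), 0.11 for *Pycr1* (53.8%) and 0.28 for *Psat1* (48.4%), so that *Psat1* lost its call (adjusted p = 0.123) with little change from its 0.31 before the correction. The share of all genes called was 20.8% with the block and 9.67% with the GC correction added.

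With IL-1β the block called *Asns* (−0.88, adjusted p = 6.52e-05) and *Mthfd2* (−0.97, adjusted p = 0.000322) lower in iCre, where the block called 29.5% of all genes, so that 2 of 10 was below the share of all genes. With the GC correction 6 were lower and 1, *Ddit3*, higher (22.6% of all genes). With TNFα it called *Ddit3* (−0.84), *Asns* (−0.85), *Mthfd2* (−0.67) and *Aldh18a1* (−0.37) lower and *Psat1* (0.53) higher, with adjusted p-values between 0.00333 and 0.0299 (32.2% of all genes). *Asns* and *Mthfd2* were therefore lower in iCre with the block in Con, bFGF, IL-1β and TNFα, and had values of 0.04 and 0.18 with TGFβ (adjusted p = 0.886 and 0.181). Without replicate 4 the test without a block called *Asns*, *Mthfd2* and *Aldh18a1* lower with TNFα and *Asns* with IL-1β, and without replicate 2 it called *Psat1* higher with IL-1β.

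**Figure D3:**
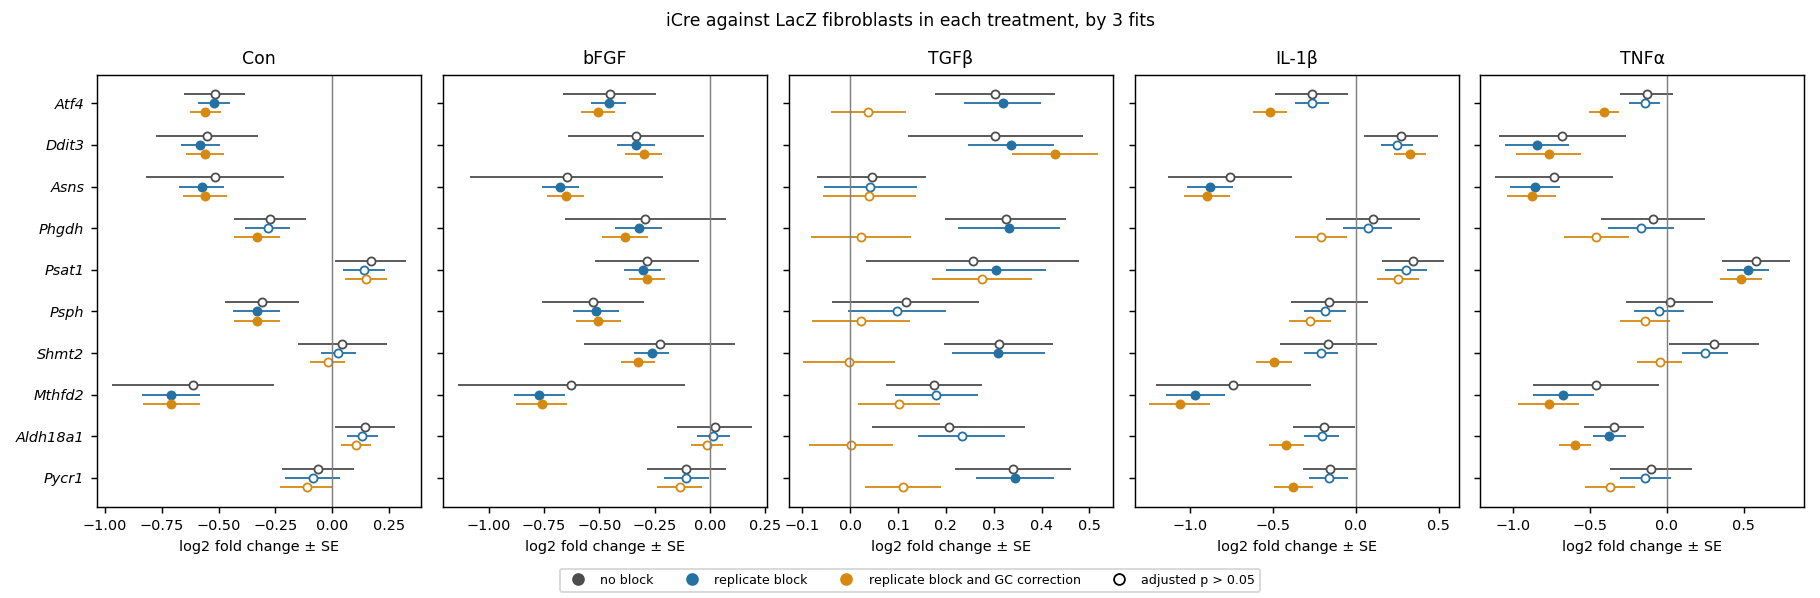
Log2 fold change with its standard error (horizontal, with its own scale in each panel) between iCre and LacZ fibroblasts in each treatment, by the fit without a block (grey), with the replicate block (blue) and with block and GC correction (orange), where filled points have an adjusted p-value of at most 0.05. All grey points are open, most block values are negative in Con and with bFGF, and with the GC correction *Ddit3* (0.43) is the one filled point with TGFβ.

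Whether the effect of a ligand depended on the virus was tested as an interaction over 16 libraries. *Atf4* passed for TGFβ, with an effect larger in iCre by 0.81 (SE 0.20, adjusted p = 0.024 and 0.0102 with the replicate block), and was 1 of 10 genes where 4.51% of all genes passed, or 8.04% with the block. Its level was lower in iCre in Con and higher with TGFβ in 4 of 4 pairs each. After correction for GC content with the block the difference was 0.57 (adjusted p = 0.1), and the call was lost without replicate 1, 3 or 4, while 3 genes passed without replicate 2. In that last fit 336 of 25210 genes passed as higher and 993 as lower. For bFGF, IL-1β and TNFα the interaction test called 0 of the 10 genes, where 0%, 7.71% and 16.1% of all genes passed. At an unadjusted p-value under 0.05, where the share of all genes was not counted, it found 0, 1 and 0 genes, and DESeq2 called 0 for each. The block called *Ddit3* for IL-1β (0.83, adjusted p = 0.000531), which fell with this ligand in LacZ but was at 44.6, 26.5, 34.6 and 54.4 CPM in iCre with IL-1β. It also called *Aldh18a1* for TNFα (−0.51, adjusted p = 0.0137), at 61.2, 63.4, 66.5 and 111 CPM in iCre with TNFα. With the block 16.9% and 25.1% of all genes passed in these 2 tests, so that 1 of 10 was below the share of all genes in both.

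Replicate numbers ordered the libraries of these genes. In iCre groups other than TGFβ, replicate 4 was the highest library in 40 of 40 combinations of gene and group, and replicate 2 the lowest in 29 of 40. In LacZ groups other than TGFβ, replicate 4 was highest in 23 and replicate 1 in 14 of 40, and replicate 2 was lowest in 27. With TGFβ in LacZ, replicate 2 was the highest library for 8 of 10 genes. Deviations from group means over the 40 libraries correlated between every pair of the 10 genes, with r from 0.59 to 0.95 (45 pairs), where all points share libraries and replicate numbers. Over the 10 group means, r between genes other than *Ddit3* was 0.83 to 0.99, and without the TGFβ groups it ranged from −0.89 to 0.97.

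Other genes of the pathway were followed as 6 fixed lists. Upstream of ATF4, 4 of 7 genes of eIF2α and its kinases and phosphatase subunits rose with TGFβ in LacZ and 0 fell, where 36.9% of all genes tested were called in either direction. They were led by *Ppp1r15a* (1.68), which directs eIF2α dephosphorylation, its constitutive counterpart *Ppp1r15b* (1.23) and *Eif2s1* (1.23), the α subunit itself. Of 12 other ATF4 targets, 8 rose and 0 fell, among them *Chac1* (3.83), which degrades glutathione, the stress cofactor *Nupr1* (2.77) and the pseudokinase *Trib3* (2.67). Of 10 amino acid transporters, 8 rose and 0 fell, with *Slc7a11* (3.52), the cystine importer, *Slc7a5* (3.35), the carrier of large neutral amino acids, and *Slc1a4* (3.08), which carries serine and alanine. Of 13 cytosolic aminoacyl-tRNA synthetases, 13 rose, by up to 2.38 for *Iars1*, 2.30 for *Tars1* and 2.26 for *Gars1*. The median log2 fold changes of these 4 lists were 0.48, 0.85, 2.61 and 1.89, against −0.17 for all genes.

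The metabolic lists were divided. Of 14 one-carbon and glycine genes, 7 rose and 4 fell with TGFβ in LacZ, again against 36.9% of all genes called. The mitochondrial folate enzymes *Aldh1l2* (3.25) and *Mthfd1l* (2.63) rose, while *Gldc*, the decarboxylase that breaks glycine down, fell by 2.53, and *Shmt1*, the cytosolic counterpart of *Shmt2*, was among those that fell. Of 10 proline, glutamate and aspartate genes, 4 rose and 4 fell. *Got1* (2.35) and *Gpt2* (2.19), transaminases linked to glutamate, rose, and *Glul*, glutamine synthetase, fell by 1.46. *Prodh* and *Aldh4a1*, which degrade proline, and *Oat* were the other genes that fell, so that genes of proline synthesis and of proline breakdown moved in opposite directions.

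**Figure D4:**
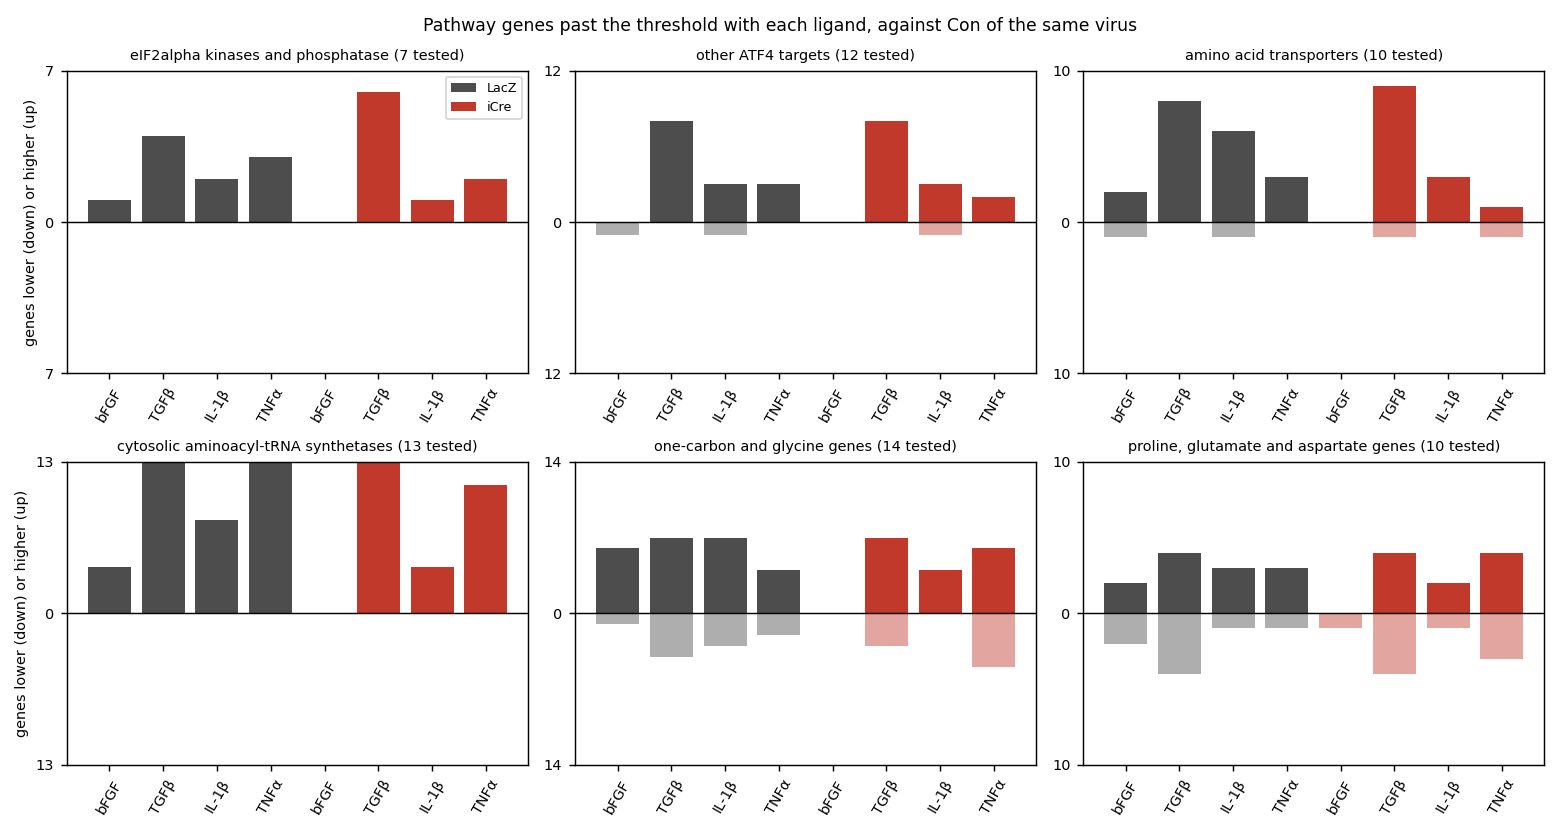
Number of genes of each list that rose (dark bars, upward) or fell (pale bars, downward) at an adjusted p-value of at most 0.05 with each ligand (horizontal) against Con, in LacZ (grey) and iCre (red). The tRNA synthetases reach 13 of 13 with TGFβ in both viruses and with TNFα in LacZ, and the one-carbon and proline lists each have 4 genes that fell with TGFβ in LacZ.

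In iCre fibroblasts the TGFβ counts of these lists, higher and lower, were 6 and 0 upstream of ATF4, 8 and 0 among targets, 9 and 1 among transporters, 13 and 0 among synthetases, 7 and 3 among one-carbon genes and 4 and 4 among proline genes, where 37.4% of all genes were called. The other ligands raised synthetases too. In LacZ fibroblasts TNFα raised 13 of 13 (median 0.71), IL-1β 8 and bFGF 4, where 21.3%, 20.7% and 11.6% of all genes were called. With the replicate block IL-1β raised 12 and bFGF 11, against 33.5% and 27.3% of all genes. In iCre fibroblasts TNFα raised 11, IL-1β 4 and bFGF 0 of them (27%, 16.3% and 2.42% of all genes), and with the block 13, 13 and 7 (36.1%, 33.8% and 16.7% of all genes). The counts of transporters and targets that follow stand against the same shares for LacZ. Transporters rose in 6 of 10 cases and fell in 1 with IL-1β in LacZ, and in 3 and 0 with TNFα, or 7 and 2 with the block. Of the 12 targets, IL-1β raised 3 and lowered 1 and TNFα raised 3 and lowered 0 in LacZ, or 7 and 2 and then 6 and 3 with the block. With bFGF in LacZ 0 targets rose and 1, *Vldlr*, fell, and with the block 4 rose and 5 fell.

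Between iCre and LacZ fibroblasts, edgeR's quasi-likelihood test without a block called 0 of the 66 genes of the 6 lists in Con or with bFGF, where 14 and 4 had an unadjusted p-value under 0.05. The share of all genes under that unadjusted threshold was not counted, so the 14 and 4 are not read as a result about the lists. DESeq2 called 6 in Con, *Slc1a5*, *Gcsh* and *Oat* as lower and *Vars1*, *Got2* and *Gpt2* as higher, and 0 with bFGF. In Con it called 8.88% of the genes to which it gave an adjusted p-value, so that 6 of 66 was close to that share. The replicate block called 14.5% of all genes in Con, 13.9% with bFGF, 20.8% with TGFβ, 29.5% for IL-1β and 32.2% for TNFα. Among targets it called 0 higher and 5 lower in iCre in Con, and 0 and 6 with bFGF. Among transporters the block called 2 higher and 4 lower in Con, 2 and 6 with bFGF, 0 and 7 with IL-1β, and 0 and 5 with TNFα. *Slc7a5* and *Slc1a5* were lower in Con by this test (−0.68 and −0.77), and *Trib3* was too (−1.004). With TGFβ the block called 7 targets higher and 2 lower, which became 1 and 2 after the GC correction (9.67% of all genes). Single genes of the lists differed without a block as well. *Eif2ak2*, the double-stranded RNA sensor PKR, was lower in iCre with IL-1β (−0.72, adjusted p = 0.0211) and TNFα (−1.23, adjusted p = 0.000386). *Eif2ak4*, the amino acid sensor GCN2, was higher with both (0.47 and 0.60, adjusted p = 0.0306 and 0.0112). Among targets, *Ddit4* (−0.95) and *Stc2* (−0.78) were lower with IL-1β, and *Atf5* (−0.80) and *Cebpg* (−0.72) with TNFα. The transporter *Slc1a4* was lower with IL-1β (−0.79, adjusted p = 0.0265) and the glutamine carrier *Slc1a5* with TNFα (−1.04, adjusted p = 0.00318). *Shmt1* was higher with IL-1β (1.37, adjusted p = 0.0042), whereas *Mthfd2l* was lower with IL-1β (−1.40) and *Aldh1l1* with TNFα (−1.35). *Pycr3*, which encodes another reductase of proline synthesis, was higher in iCre with IL-1β (0.48). *Prodh* was lower with TNFα (−1.09, adjusted p = 0.00506). *Vars1* was higher with TNFα (0.68, adjusted p = 0.0116). These tests were without a block, and with the block and GC correction the calls of *Vars1* (0.33, adjusted p = 0.096) and of *Pycr3* with IL-1β (0.21, adjusted p = 0.134) were lost.

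With TGFβ, *Cebpg* (−0.44), *Slc7a11* (−0.65), and *Slc25a32*, the mitochondrial folate carrier (−0.63), were lower in iCre, and *Atf5* (0.32) was higher. With the replicate block and GC correction, the call was lost for these 4 genes, with values of −0.20, −0.20, −0.22 and −0.02 (adjusted p = 0.996).

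The genes whose group means were most like those of the serine and one-carbon genes, over the 10 groups and among 9459 genes with at least 10 CPM, were *Nars*, *Mark3*, *Tnfrsf11b*, *Lars* and *Yars* (Pearson's r 0.99 each). *Nars*, *Lars* and *Yars* encode tRNA synthetases. For the proline genes they were *B3galnt2*, *Hhipl1*, *Otub2*, *Plekha1* and *Rasl11b* (r 0.99 each). The 10 points of these correlations share the replicate numbers, and 2 of them are the TGFβ groups.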

How the data were processed

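RNA-seq reads of 40 libraries were mapped to mm10 (GRCm38) with STAR and counted per gene, and the authors deposited a table of whole-number counts per Ensembl gene. The submitters' processing notes name FastQC 0.10.1 and HTSeq 0.10.0. Which strand was counted and which annotation release served are not given in the sources used here. Gene models came from GENCODE M21. The 10 genes and the 6 pathway lists were chosen with earlier results of these data known.

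Genes with at least 10 counts in total were tested with edgeR 4.0.16 (R 4.3.3), with TMM scaling and the quasi-likelihood test on the 8 libraries of a comparison or the 16 of an interaction, and p-values were adjusted by Benjamini-Hochberg over 25210 genes. A gene was called at an adjusted p-value of at most 0.05. Alternatives were DESeq2 1.42.0, its size factors, other filters, each replicate number left out, the replicate number as a block, and the block with a GC spline (4 degrees of freedom). The scripts were tested on simulated data. Libraries of the same number shared deviations from their group means (mean r 0.58 over 9469 genes, −0.16 between numbers), with every pair of groups that entered 1 comparison above 0.1 (lowest 0.302), so the numbers were taken to pair the samples. Over all pairs of groups, also those never compared, the lowest was 0.0316. All 10 genes are named throughout. From each list the 3 largest called changes with TGFβ in LacZ and the 2 largest between iCre and LacZ with TGFβ, IL-1β and TNFα are named, among genes of at least 1 CPM, except for some genes that are not reported here. Without molecular identifiers, depth covers counting error only.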

Additional observations from a re-analysis of the deposited data

Results flagged for a closer look

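In 12 of 100 groups of 4 libraries, the highest library stood apart by Dixon's ratio at its 95% level. With TNFα in iCre fibroblasts this was replicate 4, at 100.7 CPM for *Asns*, 83.46 CPM for *Phgdh*, 26.43 CPM for *Psph*, 54.93 CPM for *Mthfd2* and 110.9 CPM for *Aldh18a1*. With IL-1β in iCre it was replicate 4 for *Phgdh*, at 40.51 CPM. With TGFβ in LacZ it was replicate 2 for *Psat1* (370.4 CPM), *Mthfd2* (195.4 CPM) and *Aldh18a1* (521.0 CPM), and replicate 1 for *Psph* (110.0 CPM). For *Ddit3* in LacZ it was replicate 4, at 56.04 CPM with bFGF and 44.23 CPM with IL-1β. The effect of TGFβ on *Atf4* differed between the viruses, by 0.8126 on the log2 scale in the interaction test, a call that was lost without replicate 1, 3 or 4 and, at 0.57, with block and GC correction (adjusted p = 0.1).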

How the results depend on the processing

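Counts below are of the 10 genes called, and those of all genes moved with the setting too. Between iCre and LacZ in Con, 7 of all genes were higher and 12 lower without a block. With the replicate block these were 1713 and 1942. With bFGF in LacZ, 222 were higher and 110 lower without replicate 3, and 2462 and 2133 without replicate 2. A change of a count below is thus not by itself a result about the 10 genes. With TGFβ against Con the counts of the 10 were 9 in LacZ and 10 in iCre under every alternative. DESeq2 called 5 with bFGF in LacZ, 2 with IL-1β and 5 with TNFα in iCre, and 1 between iCre and LacZ in Con. Of all genes it called 2515 higher and 2157 lower, 2840 and 2672, 4074 and 4007, and 751 and 595 in that order. Without a filter, IL-1β in iCre gave 2 (2288 of all genes higher and 1694 lower). With the replicate block, bFGF gave 8 in LacZ (27.3% of all genes) and 6 in iCre (16.7%), IL-1β 6 (33.8%) and TNFα 8 (36.1%) in iCre. Between iCre and LacZ the block gave 5 in Con (14.5% of all genes), 8 under bFGF (13.9%), 6 under TGFβ (20.8%), 2 under IL-1β (29.5%) and 5 under TNFα (32.2%). The interactions with IL-1β and TNFα gave 1 each (16.9% and 25.1% of all genes). Block and GC correction gave 9 with bFGF in LacZ, and in iCre 6 under bFGF, 4 under IL-1β and 8 under TNFα, then 6, 8, 1, 7 and 6 between iCre and LacZ in that order of treatments, and 0, 2 and 1 for the interactions with TGFβ, IL-1β and TNFα. Among the 24970 genes of these fits, calls higher and lower were 3592 and 3312 with bFGF in LacZ. In iCre they were 2389 and 1760, 3694 and 3781, and 4304 and 4242 in the same order. Between iCre and LacZ they were 1696 and 1954, 1644 and 1785, 793 and 1621, 2435 and 3205, and 3519 and 3431. For the interactions they were 282 and 524, 1346 and 1777, and 2618 and 2714. Leaving out 1 replicate number gave 0 to 5 with bFGF and 2 to 5 with IL-1β in LacZ. In iCre it gave 0 to 2 under bFGF, 0 to 2 under IL-1β and 2 to 6 under TNFα. Between iCre and LacZ it gave 0 to 1 in Con, 0 to 7 under TGFβ, 0 to 1 under IL-1β and 0 to 3 under TNFα, and for the interactions 0 to 3 with TGFβ and 0 to 1 with TNFα. Under TGFβ, 16 of all genes were higher and 490 lower in iCre without replicate 3, and 1029 and 2129 without replicate 2. The cause was not tested.

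Of 213 single log2 fold changes, the replicate block brought 53 past the threshold and changed no other call. With block and GC correction 55 passed and 8 were lost. In 1 more, *Atf5* between iCre and LacZ with TGFβ, the call was lost with a change of sign, from 0.32 to −0.0155.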
